A study of Homo sapiens with 7 samples.

Results

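The genes described are 10 that build and turn over the actin cytoskeleton, chosen by name for abundant mRNAs of this system and for the very short reading frames of the thymosins. They are ACTB and ACTG1 (the cytoplasmic beta and gamma actins), CFL1 (cofilin), PFN1 (profilin), TMSB4X and TMSB10 (thymosins), MYL6 and MYL12B (myosin light chains), TPM3 (a tropomyosin) and ARPC2 (a subunit of the Arp2/3 complex). They make up 10 of the 20056 genes with values, and all 10 were among the 14305 genes with a mean of at least 1 RPKM (reads scaled by exon length and library size) in at least 1 parameter. HCT116, an established human colorectal carcinoma line, was grown to log phase and split for 3 assays, and no treatment was compared. Before lysis, the cells for the polysome libraries were given cycloheximide, which halts ribosomes on the mRNA. Transcription rate (TR) was read by GRO-seq, a run-on of engaged polymerases in isolated nuclei (2 libraries), mRNA abundance (RA) by RNA-seq (3 libraries) and translation activity (TA) by sequencing the mRNA that sediments with polysomes (2 libraries). The groups are therefore 3 measurements of 1 cell line, and the stability index log2(RA/TR) and the translation index log2(TA/RA) compare them gene by gene.

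Actin exists as monomers and as filaments that grow and shrink at their ends. Thymosins hold monomers in reserve, profilin passes monomers to growing ends, and cofilin cuts old filaments and frees monomers again. The Arp2/3 complex starts branches on existing filaments, tropomyosins wind along filaments and govern what else can bind, and non-muscle myosin II, of which the light chains are part, pulls filaments together. Many genes of this system are targets of serum response factor, whose coactivators are held back by free actin monomers.

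Library sizes, worked out from the RPKM values, were 3391897 and 5629982 reads for TR, 20299018 to 22532134 for RA and 22421062 to 30805391 for TA. Each of 6 epithelial markers had at least 1 RPKM in each of the 7 libraries (summed 1478 to 5706 RPKM). Of 10 markers of fibroblasts, leukocytes, endothelium and muscle, 2 to 4 reached 1 RPKM in each library. Their summed level was 6.10 to 33.3 RPKM in 6 libraries and 304.3 RPKM in TR replicate 1. COL1A2, DCN, PTPRC, CD3E, CD14 and PECAM1 stayed under 1 RPKM throughout. The fibroblast marker COL1A1 was at 3.33 to 18.9 RPKM in all 7 libraries. DES was at 48.5 RPKM in TR replicate 1, 0.632 in TR replicate 2, and 1.62 to 4.03 in RA and TA. MYH11 was at 9.60 and 13.3 RPKM in TR replicates 1 and 2, and under 1 RPKM in RA and TA. TR replicate 1 stood apart in skeletal muscle genes. The skeletal muscle actin gene ACTA1 was at 225 RPKM there (1141 reads) and at 2.14 RPKM in TR replicate 2 (18 reads). A list of 16 skeletal muscle genes, chosen after the values were seen, was higher in TR replicate 1 than in TR replicate 2 for 16 of 16, and summed to 800.3 RPKM against 63.5 RPKM. In the RA and TA libraries the same sum was 3.94 to 8.17 RPKM. The TR values of the members differed by 1.03 to 1.46 times between both TR libraries. The part of the muscle signal in the members' TR was not tested, and in bulk libraries more cells of a type and more RNA per cell cannot be told apart. The source of the muscle signal was not tested either, and the authors pooled several samples in each sequencing lane. Values without TR replicate 1 stand beside the stability indices.

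The members fall into families of near copies, and their sequences bear on how far the reads of each can be told apart. The reading frames of ACTB and ACTG1 (375 residues each) shared 91.2% of bases and 98.9% of residues, with 4 residue differences and a longest shared run of 59 bases. Both begin as follows, with the 10 bases that differ in capitals.
ACTB: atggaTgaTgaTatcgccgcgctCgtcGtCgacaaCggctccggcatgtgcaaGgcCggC
ACTG1: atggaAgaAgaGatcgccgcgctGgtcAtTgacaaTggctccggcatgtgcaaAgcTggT
These are the opening 60 bases of each reading frame, which lies on the minus strand in exons of chr7:5567382-5569288 (ACTB) and chr17:79477719-79479380 (ACTG1) of GRCh37, as annotated in GENCODE release 44. The thymosin reading frames are shown whole, because they have only 135 bases and 44 residues and because TA lay below RA in both genes. Capitals mark the 37 bases that differ.
TMSB4X: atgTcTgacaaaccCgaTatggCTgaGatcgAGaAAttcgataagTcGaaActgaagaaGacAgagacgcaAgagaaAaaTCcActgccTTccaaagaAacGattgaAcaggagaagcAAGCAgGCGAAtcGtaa
TMSB10: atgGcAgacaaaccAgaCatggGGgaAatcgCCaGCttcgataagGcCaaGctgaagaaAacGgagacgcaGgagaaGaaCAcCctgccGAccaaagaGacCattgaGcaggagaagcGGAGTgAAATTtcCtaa
They lie on the plus strand in exons of chrX:12994381-12994927 and chr2:85133142-85133544. They shared 72.6% of bases and 75% of residues, and no run longer than 10 bases, so reads of one are unlike those of the other.

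Other near copies were MYL12B and MYL12A, with 95.2% of bases of the reading frame and a run of 77 bases in common, and MYL6 and MYL6B, with a shared run of 48 bases. The annotation names 21 pseudogenes of ACTG1 (3 of them listed in the table), 12 of ACTB (0 listed) and 11 of PFN1 (1 listed). It names 9 of TPM3 and 8 of CFL1 (1 listed each). It also names 6 of TMSB4X, 5 of MYL6, 3 of MYL12B and 2 of TMSB10 (0 listed each), and none of ARPC2. How the authors' counting treated reads that match several of these places is not given in the sources used here. The values of the members with near copies or pseudogenes, which are all but ARPC2, are uncertain to that extent. The exons of PFN1 overlapped ENO3 on the opposite strand over 13.8% of their length, those of CFL1 overlapped SNX32 over 9.16%, and those of MYL6 overlapped MYL6B on the same strand over 12.6%. With a kit that does not mark strand, reads of such stretches cannot be told apart.

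The remaining members lie at chr11:65590493-65629497 (CFL1, minus strand), chr17:4848947-4852356 (PFN1, minus), chr12:56552130-56557280 (MYL6, plus), chr18:3261477-3278459 (MYL12B, plus), chr1:154127784-154167124 (TPM3, minus) and chr2:219081864-219119079 (ARPC2, plus) of GRCh37. Their reading frames code for 166, 140, 151, 172, 285 and 300 residues in this order. Untranslated regions made up 35.6% (MYL6) to 87.9% (TPM3) of the canonical transcripts of the members, and 78.3% and 70.7% in TMSB4X and TMSB10.

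In the promoters of RefSeq (250 bases before to 50 after each start site, GRCh38.p14), which matched all members but ACTB, the binding box of serum response factor, the CArG box, was searched on both strands. Among the members it was found in ACTG1, 94 bases before the start site on the minus strand at chr17:81512874-81512903, shown with the box in capitals.
ACTG1 box: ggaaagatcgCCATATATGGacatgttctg
That is 1 of 9 members, beside 11.5% of 78 genes of a wider actin cytoskeleton list and 1.60% of all 27305 genes with a promoter (1.29% of promoters). A match describes these letters only.

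The level of each member in each library is given in RPKM, a value per exon length that allows genes to be compared. ACTG1 was the most abundant member in each of the 3 parameters. It had 1200 and 1318 RPKM in TR, 3599, 5534 and 6342 in RA, and 7362 and 9536 in TA. No gene of the whole table was above it in any RA or TA library, and 1 gene was above it in each TR library. ACTB had 483 and 448 RPKM in TR, 1467, 1139 and 2028 in RA, and 2565 and 4490 in TA. For both actins each RA library was above each TR library, and each TA library was above each RA library. The ratio of ACTG1 to ACTB was 2.49 to 2.95 in TR, 2.45 to 4.86 in RA and 2.12 to 2.87 in TA, and these ranges overlapped.

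The thymosins followed another order. TMSB10 had 908 and 977 RPKM in TR, 2782, 5446 and 3503 in RA, and 1516 and 2345 in TA. It was the second most abundant gene of each RA library, and ranked 5 in both TR libraries and 12 and 5 in TA. TMSB4X had 53.9 and 55.3 RPKM in TR, 62.4, 145 and 72.4 in RA, and 41.5 and 44.7 in TA. For both thymosins each RA library was above each TR library, and each TA library was below each RA library.

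CFL1 and PFN1, which recycle monomers, resembled each other. CFL1 had 176 and 120 RPKM in TR, 859, 429 and 569 in RA, and 809 and 1249 in TA. PFN1 had 198 and 153 RPKM in TR, 632, 303 and 408 in RA, and 517 and 835 in TA. In both genes TR lay below all RA libraries, and RA and TA overlapped.

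The other 4 members are parts of myosin, a tropomyosin and a subunit of the branching complex. MYL6 had 184 and 164 RPKM in TR, 445, 430 and 323 in RA, and 388 and 356 in TA. MYL12B had 43.3 and 46.0 in TR, 212, 294 and 275 in RA, and 194 and 234 in TA. ARPC2 had 39.6 and 35.2 in TR, 157, 140 and 134 in RA, and 133 and 127 in TA. In all 3 RA was above TR without overlap. TA lay within the range of RA in MYL6, overlapped it in MYL12B and lay just below it in ARPC2. TPM3 had 19.5 and 20.7 RPKM in TR, 26.2, 17.1 and 16.9 in RA, and 29.1 and 24.8 in TA, so that its TR lay within the range of its RA. The exon length behind the deposited TPM3 and PFN1 values was 1.64 and 1.69 times that of the canonical transcript. Per canonical length, the mean RA would be 32.9 RPKM for TPM3 and 757 RPKM for PFN1. This rescales the same reads, so the ratios between parameters stay as they are by construction. Whether a recount on the canonical exons would change these ratios was not tested.

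**Figure D1:**
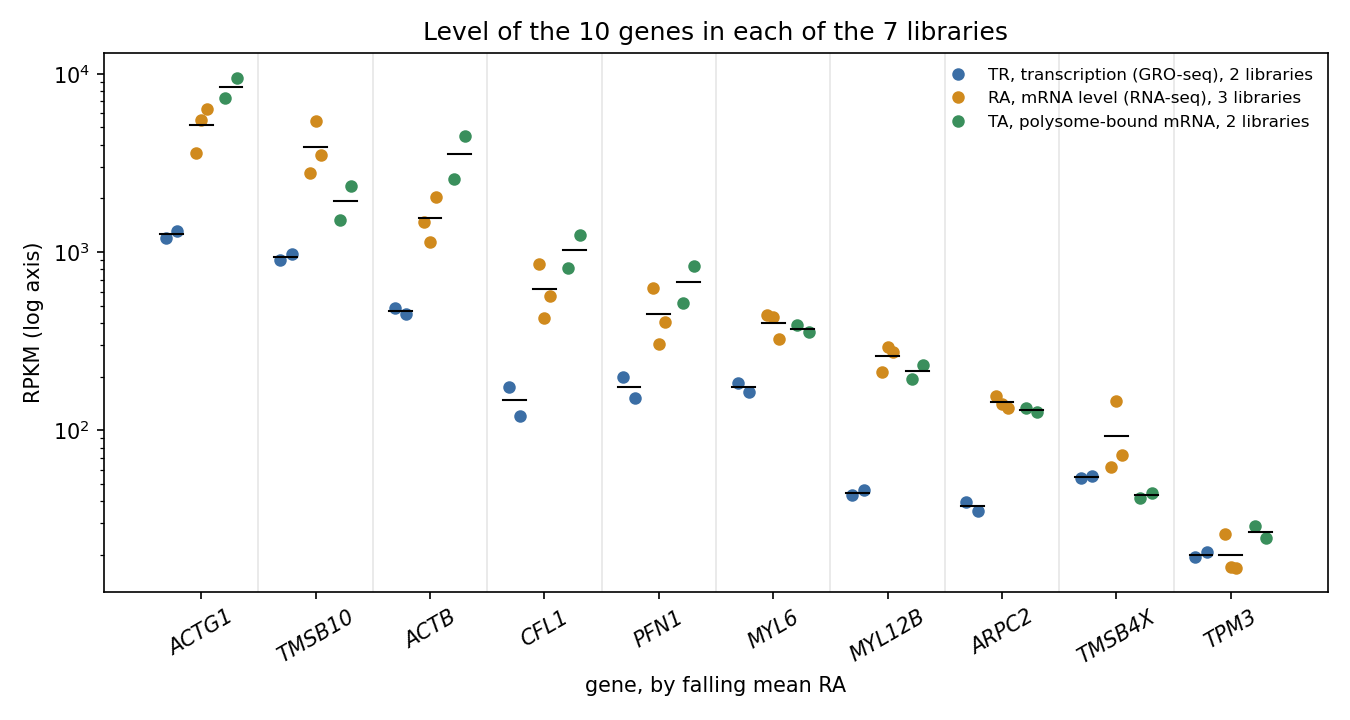
RPKM (log axis) of the 10 genes in each of the 7 libraries, with genes ordered by falling mean RA; points are libraries of TR (blue, 2), RA (orange, 3) and TA (green, 2), and black bars are arithmetic means. RA lies above TR without overlap in 9 genes, and TA lies below RA without overlap in TMSB10, TMSB4X and ARPC2 and above it in ACTG1 and ACTB.

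By mean RA (± SD, n = 3) the order was ACTG1 (5158 ± 1409 RPKM), TMSB10 (3910.35 ± 1378), ACTB (1545 ± 449), CFL1 (619 ± 219), PFN1 (448 ± 168), MYL6 (399 ± 66.2), MYL12B (260.3 ± 43.1), ARPC2 (144 ± 11.9), TMSB4X (93.4 ± 45.4) and TPM3 (20.1 ± 5.35). The libraries of neighbours in this order overlapped for ACTG1 with TMSB10, for CFL1 with PFN1, for PFN1 with MYL6 and for ARPC2 with TMSB4X. Between the other neighbours they did not overlap. By mean TA (± SD, n = 2) ACTB (3527 ± 1361 RPKM) stood above TMSB10 (1930.5 ± 586), and TMSB4X (43.1 ± 2.30) stood below ARPC2 (129.8 ± 3.91).

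The stability index asks how much of each mRNA was present for its transcription. In these libraries 8 of the 10 genes rose from TR to RA at a limma adjusted p under 0.05, and none fell at an adjusted or an unadjusted p under 0.05. Both actins, the main thymosin, the monomer recyclers, the light chains and the Arp2/3 subunit were higher in RA, by 2.28-fold (MYL6) to 5.77-fold (MYL12B), whereas TPM3 and TMSB4X did not pass. Over all genes tested 19.2% rose and 48.0% fell. These shares include genes that reached 1 RPKM in TR alone, for which the filter itself required a lower RA. Such genes raise the share that fell and lower the share that rose. This limit applies to each stability value over all genes tested, here and below. Among the 4196 genes with at least the mean RA of TPM3, the lowest member, 50.0% rose. These genes are not a set of like level, since the other members had a mean RA of 93.4 to 5158 RPKM. The members were chosen for abundant mRNAs, and a choice by high RA itself favours a high stability index. How much this choice adds was not tested. RA was above TR without overlap in 9 members, beside 24.3% of all genes. The median stability index of the members was 1.81, against -0.58 over all genes tested and 0.60 over the 4196 genes.

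MYL12B, a regulatory light chain of non-muscle myosin II, had the highest stability index of the members, 2.53 (SE 0.22, limma adjusted p = 2.2e-05). ARPC2 followed a similar course at lower level, with 1.94 (SE 0.17, limma adjusted p = 2.5e-05). MYL12B, MYL6 and ARPC2 had the smallest spread between RA libraries, with the highest at 1.39, 1.38 and 1.17 times the lowest. MYL6, an essential light chain, had an index of 1.19 (SE 0.25, limma adjusted p = 0.00314). CFL1 rose by 2.03 on the log2 scale (SE 0.39, limma adjusted p = 0.00197) and PFN1 by 1.297 (SE 0.38, limma adjusted p = 0.0164).

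ACTG1 and TMSB10 had stability indices of 1.996 and 1.997, with an SE of 0.66 and 0.54 and a limma adjusted p of 0.0265 and 0.0110. The index of ACTB was 1.69 (SE 0.47, limma adjusted p = 0.0125). TMSB4X had 0.67 (SE 0.33, limma adjusted p = 0.109), which did not pass although its libraries did not overlap. In that gene RA replicate 2 stood at 145 RPKM and the other RA libraries at 62.4 and 72.4, and without RA replicate 2 the index was 0.30 (limma adjusted p = 0.208). TPM3 had an index of -0.03 (SE 0.23, limma adjusted p = 0.915).

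Without TR replicate 1, the library with the muscle signal, the indices were 1.75 for ACTB, 1.93 for ACTG1, 2.31 for CFL1, 1.49 for PFN1, 0.65 for TMSB4X, 1.94 for TMSB10, 1.27 for MYL6, 2.48 for MYL12B, -0.07 for TPM3 and 2.02 for ARPC2. Called genes numbered 4 then (CFL1, MYL6, MYL12B and ARPC2), with limma adjusted p-values of 0.0917 for ACTB, 0.227 for ACTG1, 0.0684 for PFN1 and 0.109 for TMSB10. The count was also 4 without TR replicate 2, and in each case the single TR library left was assumed to vary like the other groups. Centring each library on its median raised all stability indices by 0.67, and then 10 of 10 members passed, TMSB4X and TPM3 included. More of all genes tested rose with centring too, so the 19.2% without centring is no background for this count. All indices here are on the deposited scale, where RPKM is a share of a library and not a number of molecules per cell.

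The translation index compares polysome-bound with total mRNA. No member rose at a limma adjusted p under 0.05 (1 did, ACTB, at an unadjusted p under 0.05), and TMSB4X alone fell, 2.02-fold. Over all genes 6.66% rose and 29.2% fell. Among the 4196 genes with at least the RA of TPM3, 15.3% rose and 22.2% fell, so the shares of members called, 0 and 1 of 10, were not above the background. TA was above RA without overlap in ACTB and ACTG1 (14.4% of all genes) and below it in TMSB4X, TMSB10 and ARPC2 (43.8% of all genes).

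The values of the members ran from 1.18 for ACTB to -1.01 for TMSB4X. The index was 1.18 (SE 0.47, limma adjusted p = 0.0840) for ACTB, 0.74 (SE 0.66, limma adjusted p = 0.411) for ACTG1, 0.76 (SE 0.39, limma adjusted p = 0.163) for CFL1 and 0.62 (SE 0.38, limma adjusted p = 0.236) for PFN1. TPM3 had 0.45 (SE 0.23, limma adjusted p = 0.157). Around 0 lay MYL6 with -0.09 (SE 0.25, limma adjusted p = 0.806), ARPC2 with -0.14 (SE 0.17, limma adjusted p = 0.547) and MYL12B with -0.27 (SE 0.22, limma adjusted p = 0.356). The thymosins were lowest, with -1.01 (SE 0.33, limma adjusted p = 0.0475) for TMSB4X and -0.99 (SE 0.54, limma adjusted p = 0.182) for TMSB10. Over the 10 genes the translation index and the length of the reading frame had r = 0.74 and rho = 0.62. GC content had r = 0.51 and rho = 0.71 with the translation index, and the length of the canonical transcript had r = 0.33 and rho = 0.65. Frame length was thus highest by r but not by rho, and these properties were not separated. The untranslated share of the transcript had r = -0.41 and rho = -0.32 with the translation index, and r = -0.54 and rho = -0.12 with the stability index. These values describe 10 genes that share their 7 libraries, and carry no test.

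The call of TMSB4X was made in 6 of 17 alternatives, at limma adjusted p-values from 0.0225 to 0.288, and its sign was the same in all 17. Centring each library raised all translation indices by 0.50. ACTB, CFL1 and TPM3 then rose at a limma adjusted p under 0.05, TMSB4X no longer passed, and MYL6, MYL12B and ARPC2 changed sign, to 0.41, 0.23 and 0.36. The median translation index was 0.18 over the members, -0.37 over all genes tested and -0.04 over the 4196 genes.

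**Figure D2:**
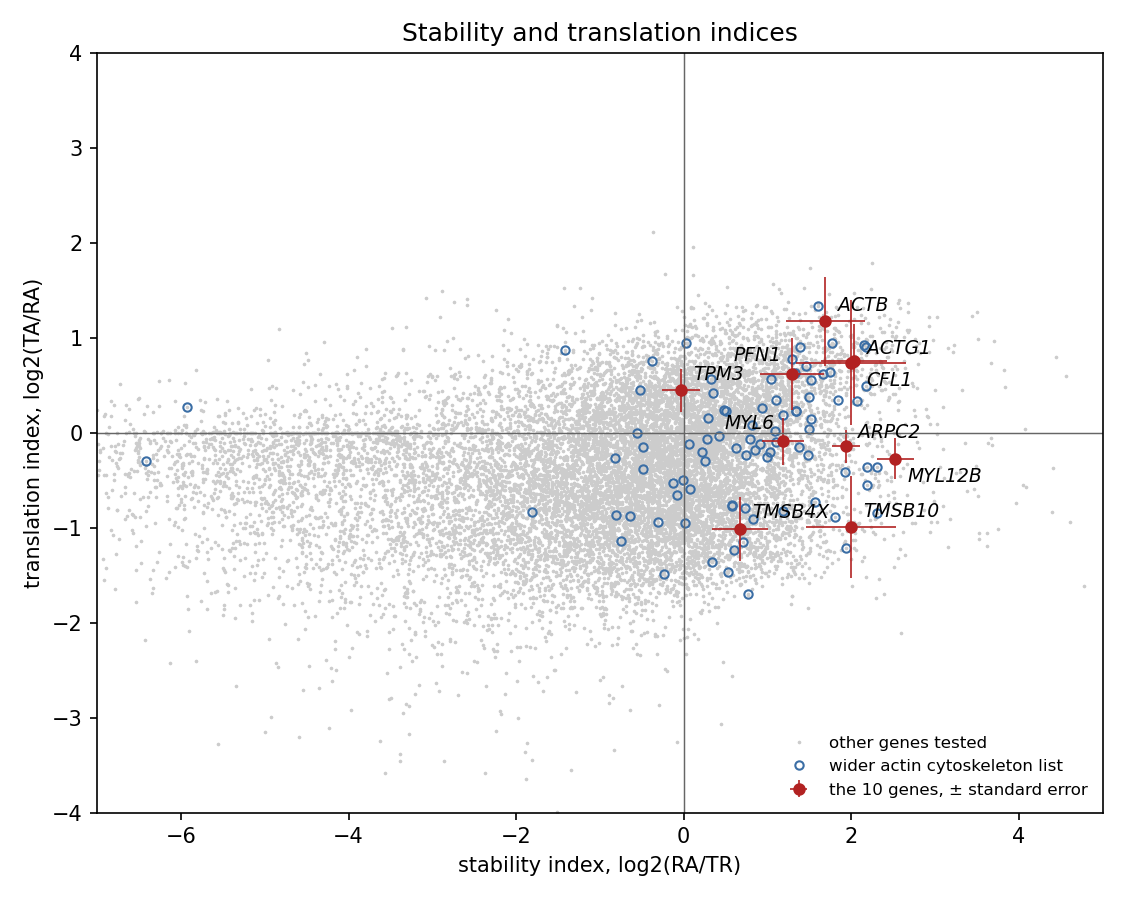
Stability index (x axis) against translation index (y axis), both log2, for the 14305 genes tested (grey), the wider actin cytoskeleton list (blue rings) and the 10 members (red, with standard errors); 129 grey genes lie outside the axes. The members lie right of 0 apart from TPM3 at -0.03, and spread from ACTB at 1.18 to the thymosins at -0.99 and -1.01 on the y axis.

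Short reading frames as a class had low values too. The 298 tested genes with a reading frame of at most 300 bases, both thymosins among them, had a median translation index of -0.84, and 86.9% of them lay below 0, against 69.2% of all genes tested. Of the 153 such genes with at least the RA of TPM3, 91.5% lay below 0, with a median of -0.85, close to the values of both thymosins. The part of frame length in the values of the thymosins was not tested.

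A ratio of genes within a library does not depend on the scaling of that library. TMSB10 relative to ACTG1 was 0.74 to 0.76 in TR, 0.55 to 0.98 in RA and 0.21 to 0.25 in TA. The TA ratios were 3.33-fold lower than those of RA, without overlap. Relative to ACTB, TMSB10 was at 1.73 to 4.78 in RA and at 0.52 to 0.59 in TA, 4.50-fold lower and again without overlap. TMSB4X relative to ACTB was 4.56-fold lower in TA than in RA. For each of these ratios the exact permutation test, two-sided, gave p = 0.2, the smallest that 3 against 2 libraries allow, so the spread between libraries is the error to read them by. Thus TMSB10 had more RPKM than ACTB in each TR and RA library, and less in each TA library.

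Between the thymosins the change lay in the step before. TMSB10 was at 16.8 and 17.7 times TMSB4X in TR, at 37.4 to 48.4 times in RA, and at 36.5 and 52.4 times in TA. The ratio was 2.51-fold higher in RA than in TR, without overlap, and RA and TA overlapped. CFL1 relative to PFN1 was 0.79 and 0.89 in TR, 1.36 to 1.42 in RA, and 1.496 and 1.57 in TA, 1.67-fold higher in RA than in TR. The exact permutation p, two-sided, was 0.2 for these differences too, over 12 comparisons of ratios in all, so none can pass an adjustment.

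**Figure D3:**
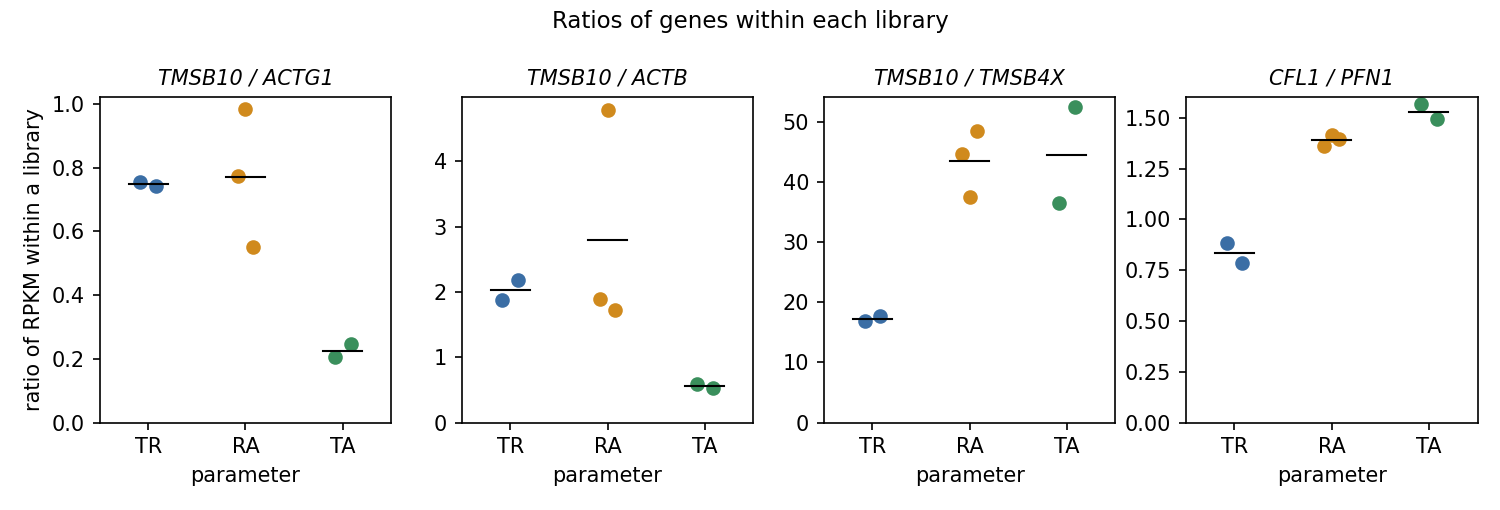
Ratios of RPKM within each library (y axes, from 0) for 4 pairs of members, with points for the libraries of TR (blue), RA (orange) and TA (green) and bars for their means. TMSB10 relative to both actins lies lower in TA than in RA, whereas TMSB10 relative to TMSB4X and CFL1 relative to PFN1 are higher in RA than in TR.

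RA replicate 2 held the highest RA value of both thymosins and the lowest of CFL1, PFN1 and ACTB. Against RA replicate 1 it was higher by 1.22 (TMSB4X), 0.97 (TMSB10) and 0.62 (ACTG1) on the log2 scale, and lower for CFL1 (-1.002), PFN1 (-1.06), TPM3 (-0.62) and ACTB (-0.36). Against RA replicate 3 the same library was higher by 1.01 for TMSB4X and 0.64 for TMSB10, and lower for ACTB (-0.83), PFN1 (-0.43) and CFL1 (-0.41). Over 10750 genes this difference to RA replicate 1 had r = -0.14 with the GC content of the transcript. Among the members GC content ran from 41.6% (MYL12B) to 58.2% (PFN1), and its part in their spread was not tested. Without RA replicate 2 the translation indices were -0.64 for TMSB4X (limma adjusted p = 0.0367), -0.73 for TMSB10 (limma adjusted p = 0.244), 0.98 for ACTB (limma adjusted p = 0.126) and 0.52 for CFL1 (limma adjusted p = 0.305).

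Both steps together, TA against TR, show how far polysomal mRNA stood from transcription. At a limma adjusted p under 0.05, 7 of 10 members rose, beside 17.0% of all genes, and none fell at an adjusted or an unadjusted p under 0.05. The increase was 7.30-fold for ACTB (log2 2.87, SE 0.51, limma adjusted p = 0.00111), 6.92-fold for CFL1 and 6.66-fold for ACTG1. MYL12B rose 4.77-fold, PFN1 3.78-fold, ARPC2 3.47-fold and MYL6 2.14-fold. TMSB10 had a log2 difference of 1.002 (SE 0.59, limma adjusted p = 0.154), TPM3 of 0.42 (SE 0.25, limma adjusted p = 0.158) and TMSB4X of -0.34 (SE 0.37, limma adjusted p = 0.420). TA was above TR without overlap in 9 members, beside 22.7% of all genes, and below it in TMSB4X, beside 65.5% of all genes. These shares of all genes include genes that reached 1 RPKM in TR alone, for which the filter required a lower TA. This comparison shares its TR libraries with the stability index and its TA libraries with the translation index. Its median log2 difference was 1.86 over the members, -1.08 over all genes tested and 0.47 over the 4196 genes with at least the RA of TPM3. The members were chosen for abundant mRNAs, and how much that choice adds here was not tested.

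As a share of all reads the members took 0.485% and 0.493% of the TR libraries, 1.47%, 1.85% and 2.10% of RA, and 2.37% and 3.31% of TA. For the smallest library the 95% binomial interval (Wilson) of this share was 0.478% to 0.493%, which covers counting error only. ACTB and ACTG1 made up 69.5% to 74.1% of the members' reads in TR and in RA replicates 1 and 2, 81.0% in RA replicate 3, and 85.0% and 85.2% in TA. The thymosins took 0.0471% and 0.0506% of the reads in TR, 0.138% to 0.272% in RA, and 0.0757% and 0.116% in TA. Reads carry no molecular identifiers.

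A wider list of 88 other genes of the actin cytoskeleton, of which 84 were tested, sets the members in their system. From TR to RA 49 rose, 9 fell and 26 did not pass (limma adjusted p under 0.05), with a median stability index of 0.81. That is 58.3% higher and 10.7% lower, beside 19.2% and 48.0% of all genes tested and 50.0% higher among the 4196 genes with at least the RA of the lowest member. The shares of all genes tested include those admitted by TR alone, which must be lower in RA. From RA to TA 9 rose, 19 fell and 56 did not pass, with a median translation index of -0.13. These are 10.7% and 22.6%, beside 6.66% and 29.2% of all genes tested and 15.3% and 22.2% of the 4196 genes, so the translation shares lie near the background. Without TA replicate 1 the translation counts were 1 and 6. With each library centred on its median the counts were 65 higher and 3 lower in stability, and 27 higher and 5 lower in translation. The shares of all genes above are those without centring, and are no background for these centred counts. The list was written with earlier results of these data known.

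Genes of the branching complex and of filament capping were mostly higher in RA than in TR. For the stability counts by role, here and below, the background is 19.2% higher of all genes tested and 50.0% of the 4196 genes above. For the translation counts it is 6.66% higher and 29.2% lower of all genes tested. How far the abundance of these genes adds to the stability counts was not tested. Of the 8 other subunits of the Arp2/3 complex, 7 rose and ARPC5L did not pass. ARPC1A rose by 2.31 on the log2 scale (SE 0.20, limma adjusted p = 2.2e-05), ACTR2 by 2.07, ARPC3 by 1.502, ARPC1B by 1.38, ACTR3 by 1.35, ARPC5 by 1.18 and ARPC4 by 1.10, and the value of ARPC5L was 0.22. With ARPC2 at 1.94, the complex thus held 8 of 9 genes that rose. From RA to TA only ARPC5 passed, and fell by 0.83 (SE 0.23, limma adjusted p = 0.0255), a call kept in 11 of 17 alternatives. All 7 capping genes rose from TR to RA, CAPZA2, a subunit of the barbed-end capping protein, by 2.19 (SE 0.15, limma adjusted p = 6.7e-06). CAPG, a capping protein of the gelsolin family, also rose from RA to TA, by 0.90 (SE 0.21, limma adjusted p = 0.0135).

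Among 10 tested genes that bind monomers or sever filaments, 7 rose and 1 fell from TR to RA. DSTN (destrin), a relative of cofilin, rose by 2.31 (SE 0.23, limma adjusted p = 5.1e-05), and COTL1, a small actin-binding protein, by 2.19 (SE 0.18, limma adjusted p = 1.5e-05). CFL2, the muscle cofilin, fell by 0.81 (SE 0.17, limma adjusted p = 0.00296), from 19.7 RPKM in TR to 11.2 RPKM in RA. With each library centred on its median the value was -0.14 (limma adjusted p = 0.487), so this call rests on the scaling. PFN2 rose by 1.57 (SE 0.25, limma adjusted p = 0.000731). TMSB15A had a stability index of 0.77 (SE 0.79, limma adjusted p = 0.411) and a translation index of -1.69 (SE 0.79, limma adjusted p = 0.128), on 17.2 RPKM in RA. Its 2 TA libraries lay apart, at 1.75 and 11.2 RPKM, and the translation index was -0.39 without TA replicate 1 and -2.995 without TA replicate 2. TMSB15B stayed under 1 RPKM in each parameter and was not tested. From RA to TA the severing protein GSN (gelsolin) rose by 0.94 (SE 0.18, limma adjusted p = 0.00756), while CFL2 and DSTN fell by 0.86 and 0.84, calls kept in 14 and 10 of 17 alternatives. With centring these values were -0.36 and -0.34 (limma adjusted p = 0.144 and 0.273).

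The activity of cofilin is set by kinases that switch it off and phosphatases that switch it on. Of 7 cofilin kinases and phosphatases, 1 rose and 3 fell from TR to RA, and 0 rose and 4 fell from RA to TA. With 7 genes these counts stand beside 19.2% higher and 48.0% lower of all genes tested in stability, and 6.66% higher and 29.2% lower in translation. The 48.0% includes genes admitted by TR alone, which must be lower in RA. LIMK2, a kinase, fell by 0.82 (SE 0.18, limma adjusted p = 0.00423) and SSH2, a phosphatase, by 0.75 (SE 0.25, limma adjusted p = 0.0277) from TR to RA. With centring neither passed, at -0.15 for LIMK2 and -0.077 for SSH2 (limma adjusted p = 0.504 and 0.796). The call of SSH2 was kept in 10 of 17 alternatives and was lost without TR replicate 1, TR replicate 2, RA replicate 2 or RA replicate 3. The phosphatase SSH1 had the lowest translation index among the called genes of the wider list, -1.49 (SE 0.17, limma adjusted p = 0.00264), from 32.2 RPKM in RA to 11.4 in TA.

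Of 15 genes of nucleation and its promoters, 9 rose from TR to RA, near the 50.0% of the 4196 genes with at least the RA of TPM3. From RA to TA 7 fell, beside 29.2% of all genes tested and 22.2% of those 4196. WASF3 fell by 1.47 (SE 0.30, limma adjusted p = 0.00900) and SPIRE1 by 1.23 (SE 0.21, limma adjusted p = 0.00544) from RA to TA. Of 11 linkers of filaments to membrane and adhesions, 8 rose and none fell from TR to RA, and 3 rose and 1 fell from RA to TA. EZR (ezrin) had 1.33 (SE 0.44, limma adjusted p = 0.0461) and MSN (moesin) 0.93 (SE 0.25, limma adjusted p = 0.0252) in the translation index, and they were called in 8 and 12 of 17 alternatives. Of 11 crosslinkers and bundlers, 6 rose and 1 fell from TR to RA. The 1 that fell, VIL1, reached 1 RPKM in TR alone, so the filter required a lower RA. Of SRF and its 2 actin-controlled coactivators, none rose, and 1 fell in each index.

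**Figure D4:**
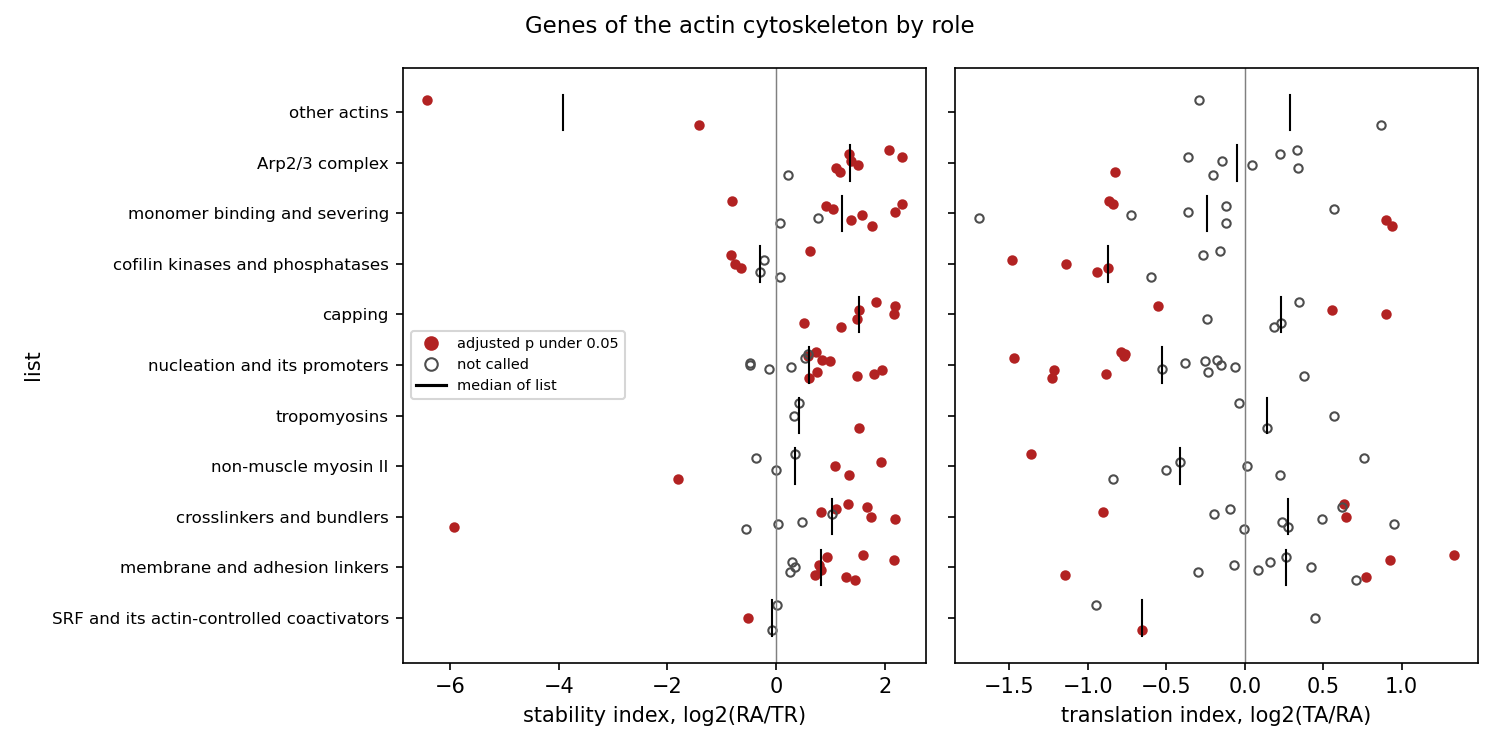
Stability index (left, log2) and translation index (right, log2) of the 84 tested genes of the wider list by role; filled red points passed a limma adjusted p of 0.05, rings did not, and black lines are the median of each list. Capping and Arp2/3 genes lie right of 0 in stability, and cofilin kinases and phosphatases and genes of nucleation lie mostly left of 0 in translation.

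The closest relatives of the members ranged from under 1 RPKM to the level of the members. Of 5 other actin genes, ACTC1, ACTG2 and ACTBL2 stayed under 1 RPKM in each parameter, and ACTA1 and ACTA2 were tested. ACTA2, the smooth muscle alpha actin, fell by 1.42 (SE 0.32, limma adjusted p = 0.00437), from 11.4 RPKM in TR to 4.22 in RA. With centring it was at -0.75 (limma adjusted p = 0.0553), and the call was also lost without TR replicate 2. ACTA1 reached 1 RPKM in TR and in no other parameter, so the filter itself required a lower RA (0.0652 to 0.268 RPKM) and its index is a description. The index was -6.42, and its size rests on TR replicate 1, since without that library it was -3.09. MYL12A, the near copy of MYL12B, had a stability index of 1.92 (SE 0.28, limma adjusted p = 0.000454) and a translation index of -0.41 (SE 0.28, limma adjusted p = 0.288), on 196 RPKM in RA. MYL9, the light chain of smooth muscle and non-muscle cells, had -0.37 (SE 0.45, limma adjusted p = 0.493) in stability. MYL6B, the neighbour of MYL6, did not pass from TR to RA, with 0.34 (SE 0.25, limma adjusted p = 0.253), and fell by 1.36 from RA to TA (SE 0.25, limma adjusted p = 0.00629). Among the other tropomyosins TPM4 rose by 1.52 (SE 0.23, limma adjusted p = 0.000498) from TR to RA, whereas TPM1 had 0.42 and TPM2 0.33, with limma adjusted p-values of 0.177 and 0.232.

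The gene nearest to each member over the 7 libraries, by the Euclidean distance of log2(RPKM + 0.1) values, was found by rule. It was GAPDH for ACTB (distance 1.39), ENO1 for CFL1 (0.52), HSP90AA1 for PFN1 (0.80), S100A13 for TMSB4X (0.45), SCD for MYL6 (0.47), SNRPD2 for MYL12B (0.58), TAP2 for TPM3 (0.30) and COPE for ARPC2 (0.33). ACTG1 and TMSB10 had S100A6 as their nearest gene, at distances of 3.04 and 2.23, larger than for the other 8 members. GAPDH had a mean of 386 RPKM in TR, 1553 in RA and 1964 in TA, beside 465, 1545 and 3527 RPKM for ACTB.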

How the data were processed

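RPKM values were deposited by the authors for each gene and library of HCT116 cells (2 GRO-seq, 3 RNA-seq, 2 polysome libraries). The authors mapped reads to hg19 with TopHat at default settings and counted them over exons with HTSeq-count; versions, counting mode, strand setting and annotation are not given in the sources used here. RNA-seq and polysome libraries came from an mRNA kit, and the GRO-seq libraries from run-on RNA, so RA and TA were enriched for mRNA and TR was not. Replicates were kept apart, and the study calls them biological.

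Library sizes and reads were worked out from RPKM, exon length and whole reads (100% of values above 0 within 0.01 reads of a whole number). In simulated libraries 7 of 7 sizes and 99.2% of 2509 genes were recovered exactly. For a gene of 1000 bases, 1 read stood for 0.295 RPKM in the smallest library and 0.0325 in the largest. Values were tested as log2(RPKM + 0.1) with limma 3.58.1 in R 4.3.3 (trend in eBayes, 7 libraries in 1 fit, 14305 genes with a mean of at least 1 RPKM in a parameter, Benjamini-Hochberg adjustment over all of them, threshold 0.05). In a simulation of RA against TR, 200 of 200 genes changed by 2 on the log2 scale were called, and 29 of 14105 unchanged genes. Every simulated gene had the same spread between libraries beyond counting error. The standard errors of the members' stability indices ran from 0.17 to 0.66, and power at the larger ones was not tested. Python 3.11.15 (numpy 2.4.6, pandas 2.3.3, scipy 1.17.1, matplotlib 3.10.9) served for the rest.

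Symbols matched GENCODE release 44 lifted to GRCh37 for 18611 genes directly and 953 by synonym, and 492 did not match. Transcript lengths, reading frames and identities are those of canonical transcripts. All members and lists were chosen with earlier results of these data known, and the muscle list after its values were seen. Genes named beyond the members are the 4 highest and 4 lowest called genes of the wider list in each index with at least 1 RPKM in each parameter, the closest paralogs, the other Arp2/3 subunits and the nearest gene of each member. VIL1 is named too, since the filter let it in by TR alone. Alternatives covered pseudocounts, filters, centring, the trend, a replicate block and each library left out; a crossed block and a GC correction (with and without RA replicate 2) were added after seeing the data.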

Additional observations from a re-analysis of the deposited data

How the results depend on the processing

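Over 17 alternatives the stability indices of CFL1, MYL6, MYL12B and ARPC2 passed in all, those of TMSB10, PFN1, ACTB and ACTG1 in 15, 14, 13 and 10. In TA against TR, ACTB, CFL1, PFN1, MYL6, MYL12B and ARPC2 passed in all 17 and ACTG1 in 14. The cause of the changes below was not tested. Members higher in RA than TR numbered 4 to 9 with 1 library left out, and members higher in TA than RA 0 to 1 and lower 0 to 1. In the wider list 1 to 9 genes rose and 6 to 20 fell from RA to TA with 1 library left out; without TA replicate 1 the counts were 1 and 6, without TA replicate 2 they were 4 and 16, and without RA replicate 3 they were 4 and 12. No member passed as lower in TA than RA with a pseudocount of 0.01 or 1, with no filter, or with centring (0 each). ACTB alone (1 member) passed as higher with the filter of 1 RPKM in each parameter and with no trend in eBayes. TMSB4X (1 member) passed as lower in TA than TR with the GC correction without RA replicate 2. With centring 3 genes of the wider list fell from TR to RA, 3 members rose from RA to TA, and 27 genes of the wider list rose and 5 fell from RA to TA.

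Equal replicate numbers are not said to mark shared cultures, so the main fit took no pairs and treated the libraries as independent. Differences between replicates had r = 0.15 (TR with RA), 0.02 (TR with TA) and -0.56 (RA with TA) over 10825 genes. The main fit leaves out any dependence between RA and TA libraries behind the last value, and its source was not tested. With the replicate block 5 members rose from TR to RA, 0 fell from RA to TA, and 1 gene of the wider list rose and 3 fell from RA to TA; 7 members still rose from TR to TA. With the crossed pairing 6 members rose from TR to RA and 1 fell from RA to TA. Of the 14305 genes tested, 2083 rose from TR to RA with the replicate block and 2544 with the crossed pairing. From RA to TA 1387 and 3542 fell in this order, and 2173 rose from TR to TA with the replicate block.

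Signs changed in 31 of the gene-wise values. In stability they were TPM3 (0.64 with centring, 0.078 with either block, and -0.24 to 0.078 with 1 library left out), TMSB4X (-0.055 with the GC correction without RA replicate 2), SSH1 (0.44 with centring) and MYL9 (0.30 with centring, 0.14 with the GC correction and 0.24 with it but without RA replicate 2). In translation they were, with centring, MYL6 (0.41), MYL12B (0.23), ARPC2 (0.36), ARPC1A (0.14), COTL1 (0.14), LIMK2 (0.24), ACTA1 (0.21), MYL12A (0.091), TPM1 (0.47), ARPC1B (0.36) and ARPC5L (0.30). ARPC3 was at -0.018 with either block. With 1 library left out ARPC3 ran from -0.068 to 0.15, ARPC1B from -0.26 to 0.041, TPM1 from -0.13 to 0.060 and TPM4 from -0.068 to 0.36. In TA against TR TMSB4X was at 0.83 with centring. The TR libraries held 115 and 196 reads of TMSB4X and 173 and 305 of MYL12B, the fewest of the members.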
